A study of Mus musculus with 18 samples.

Results

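RNA of round spermatids, the haploid germ cells that arise from the meiotic divisions, was compared between the polysome fraction and the ribonucleoprotein particle (RNP) fraction of a sucrose gradient. The comparison has 6 members, the 3 round polysome and 3 round RNP libraries, out of 18 libraries of large RNA in the series. They were chosen by the cell type and the fraction in their labels, and no measured value entered the choice. The other libraries come from pachytene spermatocytes and elongating spermatids, and the study asked whether mRNAs held in RNPs differ in 3′ UTR length from mRNAs on polysomes.

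All 6 libraries were made from adult wild-type C57BL/6 mice. For each purification, cells from 8 testes were pooled and the round spermatids were taken from a STA-PUT sedimentation chamber, which sorts cells by size. The polysome libraries hold gradient fractions 16 to 22 and the RNP libraries hold fractions 1 to 4, and both come from homogenates cleared of nuclei and made in the presence of cycloheximide, a drug that keeps ribosomes on their mRNAs. The sources do not state which libraries share a purification, so the p-values measure the spread between libraries. In the gene and transcript tests that spread was pooled over all 18 libraries in 6 groups, and not taken from the 6 round libraries alone.

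An mRNA in translation carries several ribosomes and sediments deep in the gradient as a polysome, whereas an mRNA that is stored or repressed stays near the top as an RNP with its bound proteins. Small stable RNAs that work inside RNPs of their own, such as spliceosomal RNAs, Y RNA and vault RNA, also sediment near the top. Round spermatids make and store many mRNAs, among them those of protamines and transition proteins, whose translation waits until the nucleus condenses and transcription stops.

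Values are FPKM, the fragments assigned to a transcript relative to the length of the transcript and the number of fragments in the library. The FPKM of a gene was the sum over the assembled transcripts that share its strand and a splice junction, and every library was divided by its median-ratio factor, which gives the scaled FPKM used below. A gene listed at 0 in a library had no such transcript assembled there, which does not show that its RNA was absent. Of 37310 annotated genes, 14664 reached an FPKM of 1 in 3 or more of the 18 libraries and were tested. Differences are log2(scaled FPKM + 1) in polysomes minus the same in RNPs, a scale that understates the change of genes with low values.

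The libraries differed in make-up before any comparison of fractions. The files listed 60395, 52625 and 109864 transcripts for polysome replicates 1, 2 and 3, against 42278, 36930 and 39269 for the RNP replicates. Spliced transcripts made up 44.0%, 44.0% and 24.8% of them in polysomes and 55.6%, 57.8% and 55.9% in RNPs. Read counts per library were not used here, and the coverage per unit of FPKM in the files was 1.76 to 2.15 in the polysome libraries and 1.64 to 1.80 in the RNP libraries.

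The 2 round libraries numbered 2 stood apart from the others and went against their label. The median scaled FPKM of 19 round spermatid markers was 94.5, 9.78 and 73.9 in polysome replicates 1, 2 and 3 and 81, 14 and 71.9 in RNP replicates 1, 2 and 3. The median of 22 Sertoli cell markers was 3.42, 62.7 and 4.66 in polysomes and 0.916, 36.6 and 6.99 in RNPs, and their summed level was 158, 2724 and 318 in polysomes and 110.2, 2393 and 270.3 in RNPs. Sertoli cells are the somatic support cells of the seminiferous tubule, and of their markers *Sox9*, *Amh* and *Fshr* were listed at 0 in replicates 1 and 3 of both fractions, while in the libraries numbered 2 none of the 22 was at 0. In replicates 1 and 3, 3 and 3 of the 22 markers were at 0 in polysomes and 11 and 8 in RNPs, and the median difference of the list between the fractions was 0.41. *Sox9*, a transcription factor of Sertoli cells, had a scaled FPKM of 8.68 in polysome replicate 2 and 8.43 in RNP replicate 2.

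Germ cell markers of other stages differed between libraries too. The median of 10 markers of elongating spermatids was 138, 4.81 and 78.7 in polysomes and 439, 6.46 and 207 in RNPs, and that of 8 spermatogonial markers was 5.64, 23.3 and 5.7 in polysomes and 3.83, 15.7 and 7.8 in RNPs. The median of 9 pachytene markers was 74.6, 30.5 and 107 in polysomes and 49.8, 28.6 and 91.9 in RNPs, lowest in the libraries numbered 2, whereas their summed level was not, with 673, 866 and 932 in polysomes and 605, 625 and 658 in RNPs. Across genes, Pearson's r was 0.828 between polysome replicates 1 and 3 and 0.839 between RNP replicates 1 and 3, while the libraries numbered 2 gave 0.508 and 0.627 with the other polysome libraries and 0.476 and 0.575 with the other RNP libraries. These r are across genes, which are not independent replicates. In bulk libraries fewer cells of a type and less RNA per cell cannot be told apart. The part of these marker levels in the results was not tested, and results are given with and without the libraries numbered 2.

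**Figure D1:**
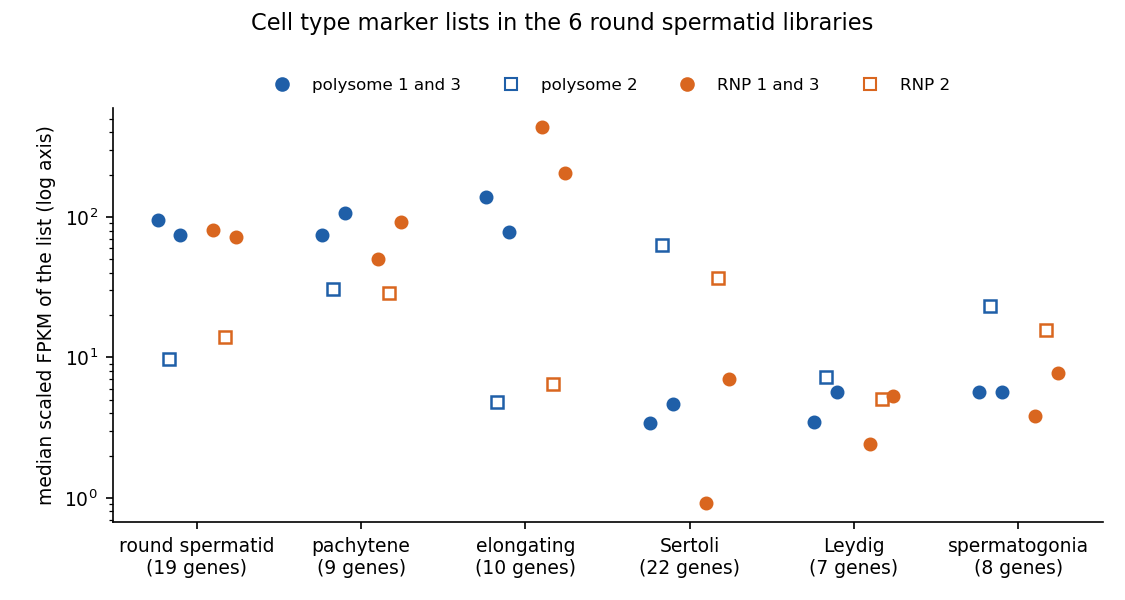
Median scaled FPKM (log axis) of each cell type marker list in the 6 round spermatid libraries, with polysome libraries in blue left of RNP libraries in orange and the libraries numbered 2 as open squares. The open squares lie lowest for round spermatid markers (9.78 and 14.0) and highest for Sertoli cell markers (62.7 and 36.6).

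Of the 14664 genes, 26 (0.177%) differed between the fractions at an adjusted p under 0.05 in limma, 15 higher (0.102%) and 11 lower (0.075%) in polysomes. The higher genes were 13 protein-coding genes, 1 pseudogene and the noncoding 7SK RNA, and the lower genes were 8 small noncoding RNAs, 1 lincRNA, 1 pseudogene and 1 protein-coding gene. Without both libraries numbered 2, 36 genes (0.245%) were called, 15 higher (0.102%) and 21 lower (0.143%), and 18 of them were among the 26. With FPKM as deposited, whose median difference over all genes was 0.65 against 0.07 after scaling, 37 genes were higher and 11 lower, and 81 and 18 without both libraries numbered 2.

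With the replicate number as a block, 14 genes (0.0955%) were called, 4 higher (0.0273%) and 10 lower (0.0682%), of which 11 were among the 26. The other 3, outside the rule for named genes, were *Rps19*, *Ak1* (adenylate kinase) and the small Cajal body RNA SCARNA16. The number of calls was 12 when replicate 3 of either fraction was left out, 17 when RNP replicate 1 was and 42 when polysome replicate 2 was, and 4 of the 15 higher and 8 of the 11 lower genes passed whichever round library was left out. Of the coding genes only *1110034A24Rik* and *Klhdc2* were called both with all libraries and with the block, which is given where it changed a call. In a fit of the 6 round libraries alone 9 of 14438 genes were called, 6 of them among the 26. *1110034A24Rik* was not called in that fit (adjusted p = 0.0786 in limma). At an unadjusted p under 0.05, 967 genes (6.59%) differed.

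Small structured RNAs made up most of the genes that were lower in polysomes. U6atac, the catalytic snRNA of the minor spliceosome that removes a rare class of introns, is annotated on chromosome 7 from 16820087 to 16820213 (mm9, minus strand) and had a scaled FPKM of 12413, 33593 and 19417 in RNP libraries, and it was listed at 0 in the 3 polysome libraries. A second copy on chromosome 2 differs near the 5′ end. The first 30 bases of both copies follow, with the 3 inserted bases of the second copy in capitals.
U6atac, chromosome 7: gtgttgtatgaaaggagaggttagcactcc
U6atac, chromosome 2: gtgttgtatgaaaggagagAAGgttagcac

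The copy on chromosome 7 passed with an adjusted p of 5.62e-13 in limma, 3.43e-11 without both libraries numbered 2 and 2.47e-08 with the replicate block. The copy on chromosome 2 had 0, 48.4 and 0 in polysomes and 577, 1009.7 and 1000.2 in RNPs, a difference of -7.83 ± 1.36 (SE) with an adjusted p of 0.0203 in limma, which was 0.0657 with the block and up to 0.178 with a single library left out (polysome replicate 3). Reads can be shared between such copies, and their sum was 0, 48.4 and 0 in polysomes and 12989, 34602 and 20417 in RNPs.

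Y RNA, the small RNA of the Ro particle, showed the same order at its first annotated copy on chromosome 6. Its scaled FPKM was 0, 174 and 16 in polysomes and 4962, 26729.5 and 5261 in RNPs, with no overlap and a difference of -9.27 ± 1.35 (adjusted p = 0.00579 in limma, 0.000947 without both libraries numbered 2). Vault RNA, a component of the large cytoplasmic vault particle, was listed at 0 in the polysome libraries and had 798, 1377 and 1535 in RNPs (adjusted p = 0.00276 in limma, 0.036 without both libraries numbered 2 and 0.021 with the block).

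Genes that the annotation only calls miscellaneous RNA were lower in polysomes as well. AC158995.1 on chromosome 9 was listed at 0 in polysomes and had 518, 2326 and 1433 in RNPs (adjusted p = 4.11e-07 in limma). AC027184.1 on chromosome 14 had 186, 566 and 227 in polysomes and 24963, 128999 and 239321 in RNPs, a difference of -8.31 ± 1.44 with an adjusted p of 0.0203 in limma, 0.0585 without both libraries numbered 2, 0.0594 with the block and up to 0.235 with a single library left out (polysome replicate 3). AL645971.1 and AL807764.1 were at 0 in polysomes and had 31.9, 42.5 and 79.7 and 20.1, 134 and 216 in RNPs, and both passed with and without the libraries numbered 2.

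7SK, the RNA that holds the elongation factor P-TEFb inactive, went the other way at 1 locus. Its gene on chromosome 9 from 78023110 to 78023440 (minus strand) had a scaled FPKM of 3198, 4397 and 4173 in polysomes, and it was listed at 0 in the 3 RNP libraries (adjusted p = 5.62e-13 in limma, 7.68e-11 without both libraries numbered 2). No transcript of any kind covered the gene in the RNP libraries, although 5 to 8 transcripts were assembled there within 50000 nucleotides on either side. Other annotated copies of 7SK carried values in RNPs that the first did not. The copy on chromosome 10 was at 0 in polysomes and had 853, 0 and 1707 in RNPs, and the copy on chromosome 2 was at 0 in polysomes and had 0, 9709 and 55330.2 in RNPs. The 5′ ends of the copies on chromosomes 9 and 10 follow, with capitals at the 6 bases of the copy on chromosome 10 that differ from the copy on chromosome 9. The copy on chromosome 2, which had the higher values in RNP replicates 2 and 3, is not shown.
7SK, chromosome 9: ggatgtgagggcgatctggctgcgacatct
7SK, chromosome 10: gAatgtgagAgTgatctggctgTgGcatGt

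Summed over all copies with a value, 7SK stood at 3198, 4399 and 4174 in polysomes and 853, 9709 and 82381 in RNPs, and the fractions overlapped. The call for the copy on chromosome 9 therefore describes that locus and not the sum of the family.

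**Figure D2:**
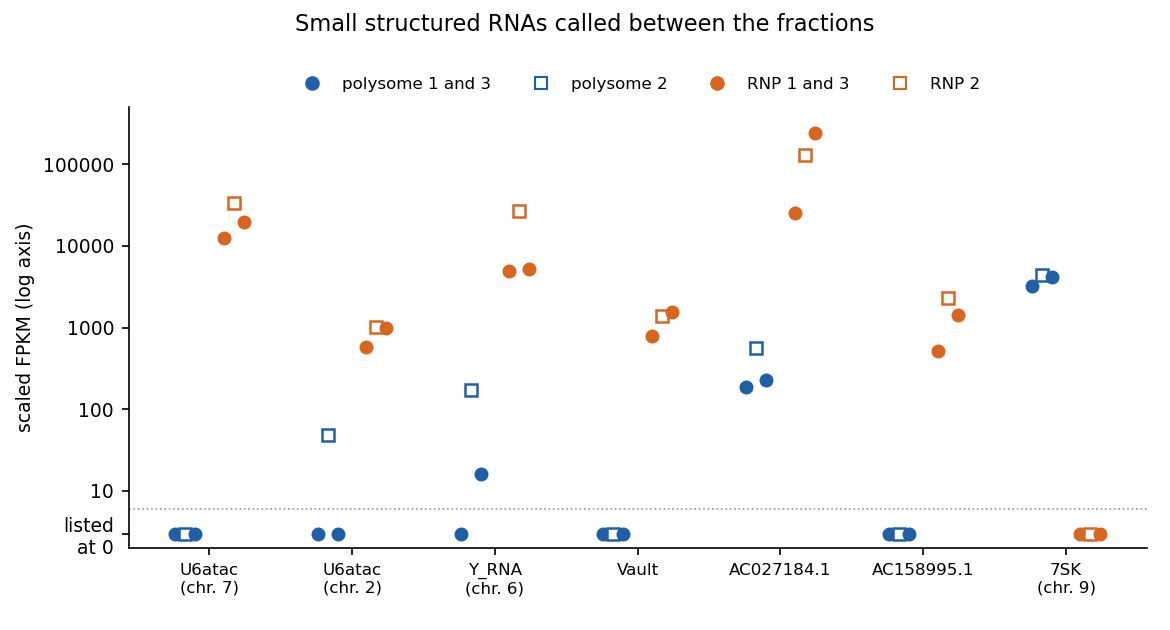
Scaled FPKM (log axis, with genes listed at 0 below the dotted line) of small RNAs called between the fractions, polysome libraries in blue left of RNP libraries in orange and the libraries numbered 2 as open squares. AL645971.1 and AL807764.1, which were also called, are not plotted. The RNP points of 6 RNAs lie above 500, where the polysome points lie lower or at 0, and 7SK on chromosome 9 has the opposite order.

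Other small RNAs that were not called lay on the same side, and they are named here after their values were seen. U4, the snRNA that pairs with U6, summed to 3755, 5929 and 5796 in polysomes and 50981, 55762 and 56709.8 in RNPs over 2 copies, and U5 to 734, 0 and 35.8 in polysomes and 4082, 6653 and 19858 in RNPs over 4 copies. RNase P RNA, which trims the 5′ ends of tRNAs, had 22.1, 22.5 and 14.6 in polysomes and 705, 1907 and 25866 in RNPs (adjusted p = 0.245 in limma). Telomerase RNA had 0, 1.5 and 0 in polysomes and 8.39, 14.6 and 44.8 in RNPs (adjusted p = 0.206 in limma). RNase MRP RNA, a relative of RNase P RNA, had 3126, 10827 and 6831 in polysomes and 6619, 16227 and 35929 in RNPs, and the fractions overlapped.

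Counted over annotation classes, 15 of 487 miscellaneous RNAs and 14 of 1423 snRNAs were tested. Of these, 10 and 10 were lower in polysomes without overlap of the 3 and 3 libraries, and 1 and 0 were higher. Over all genes tested the same held for 638 lower (4.35%) and 604 higher (4.12%). The median difference was -6.83 for miscellaneous RNAs and -5.36 for snRNAs, against 0.07 over all genes. It was -7.81 and -3.82 without both libraries numbered 2. A gene listed at 0 in polysomes could enter the test through its RNP values alone. These counts and medians thus partly follow from the FPKM minimum, and they describe the genes tested and not the whole classes. Of 47 snoRNAs, which guide the modification of rRNA, 2 were lower and 1 higher, with a median of -0.77. The mitochondrial 12S rRNA *mt-Rnr1* had 145, 30.3 and 49.7 in polysomes and was listed at 0 in the RNP libraries (adjusted p = 0.635 in limma).

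Among the protein-coding genes that were higher in polysomes, *Mybl1* and *Ccdc79* act in meiosis. *Mybl1*, the transcription factor A-MYB that switches on genes of meiotic prophase and precursors of piRNAs, had a scaled FPKM of 118, 90.9 and 145 in polysomes and 11.8, 12.5 and 11.1 in RNPs. Every polysome value lay well above every RNP value, and the difference was 3.20 ± 0.49 with an adjusted p of 0.00937 in limma, 0.0344 without both libraries numbered 2 and 0.0514 with the block. *Ccdc79*, a protein that ties telomeres to the nuclear envelope in meiosis, had 59.3, 109 and 63.5 in polysomes and 10.2, 19.8 and 11.2 in RNPs. Its difference was 2.41 ± 0.42, with an adjusted p of 0.0203 in limma, 0.0365 without both libraries numbered 2 and 0.0619 with the block. *Ccdc79* was the only called member of the list of meiotic recombination and synapsis, of whose 52 genes 23 had a positive and 29 a negative difference, with 3 higher and 4 lower without overlap and a median of -0.06.

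Signalling and lipid enzymes were also among the higher genes. *Pnpla7*, a lysophospholipase of the endoplasmic reticulum, had 247, 107 and 295 in polysomes and 10.8, 6.996 and 9.48 in RNPs, a difference of 4.32 ± 0.68 with an adjusted p of 0.0107 in limma (0.0344 without both libraries numbered 2, 0.0619 with the block). *Cdk13*, a kinase of the RNA polymerase II tail, had 72, 61.6 and 50.7 in polysomes and 13.4, 17.4 and 13.9 in RNPs, a difference of 1.97 ± 0.38 with an adjusted p of 0.0476 in limma (0.0776 without both libraries numbered 2, 0.0619 with the block). *Rasa1*, a GTPase activator of RAS, had 93.1, 77 and 96.6 in polysomes and 26.4, 18.6 and 16 in RNPs, a difference of 2.10 ± 0.37 with an adjusted p of 0.0214 in limma (0.0605 without both libraries numbered 2, 0.0657 with the block). In these 3 genes the polysome libraries did not overlap the RNP libraries, and in *Pnpla7* polysome replicate 2 stood below the other polysome libraries. Without polysome replicate 3, and without RNP replicate 3, *Mybl1*, *Ccdc79*, *Pnpla7*, *Cdk13* and *Rasa1* were no longer called, and over the 6 single libraries left out the highest adjusted p in limma was 0.0911 for *Mybl1*, 0.0911 for *Pnpla7*, 0.156 for *Ccdc79*, 0.185 for *Rasa1* and 0.257 for *Cdk13*, which was lost without any one of them.

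A pseudogene was called in each direction. *Plk-ps1* on chromosome 5 had 14.9, 7.47 and 14.3 in polysomes and was listed at 0 in RNPs (adjusted p = 0.0186 in limma, 0.0557 without both libraries numbered 2). *Gm12041* on chromosome 11 was listed at 0 in polysomes and had 47.2, 12.6 and 80.4 in RNPs (adjusted p = 0.0018 in limma, 0.00152 without both libraries numbered 2).

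Genes with low levels passed where the RNP values were at or near 0. *Celsr3*, a cadherin of planar cell polarity, had 10.5, 7.4 and 19.14 in polysomes and 0, 2.05 and 0 in RNPs (adjusted p = 0.0202 in limma, 0.00305 without both libraries numbered 2 and 0.118 with the block). *Myh3*, the embryonic myosin heavy chain, had 6.34, 9.37 and 3.96 in polysomes and was listed at 0 in RNPs (adjusted p = 0.00579 in limma, 0.0514 with the block), and *Atg16l2*, a relative of an autophagy protein, had 7.47, 7.95 and 6.77 in polysomes and was listed at 0 in RNPs (adjusted p = 0.0421 in limma, 0.122 without both libraries numbered 2), and the last pair lay under the level of 10 set for named genes. *Ttn*, the giant sarcomere protein titin, is named after its values were seen, and its assembled fragments summed to 101.8, 83.3 and 99.7 in polysomes and 0.854, 2.43 and 1.33 in RNPs, with an adjusted p of 0.245 in limma.

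Several coding genes also sat side by side in the genome. *1110034A24Rik*, *Pole2*, *Klhdc1*, *Klhdc2* and *Nemf* lie between 70286878 and 70458153 on chromosome 12, and all 5 were called higher in limma. When both libraries numbered 2 were left out, *Klhdc2* (adjusted p = 0.00184) and *1110034A24Rik* (3.36e-05) were called, and *Pole2* (0.0979), *Nemf* (0.0639) and *Klhdc1* (0.0986, outside the rule for named genes) were not. *Klhdc2*, a substrate receptor of a ubiquitin ligase, had 82, 59.6 and 139.7 in polysomes, *1110034A24Rik* had 46, 17.3 and 40.8, *Pole2*, a subunit of DNA polymerase epsilon, had 4.1, 39.8 and 59.5, and *Nemf*, a factor of ribosome quality control, had 15.1, 18.4 and 32.7, and each was listed at 0 in the 3 RNP libraries. With the block the adjusted p of *Pole2* and *Nemf* was 0.0619 and that of *Klhdc1* 0.118, and without polysome replicate 3 these 3 genes were not called. The region held 11, 10 and 17 spliced transcripts in polysomes and 0, 0 and 0 in RNPs.

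Single-exon fragments filled the same region in RNPs. There were 9, 2 and 20 of them in polysomes and 51, 40 and 43 in RNPs, where the highest had a scaled FPKM of 35260.3, 7448 and 3014. They were counted on either strand, whether or not they lay on exons of the genes named above. In length-weighted values both spliced and single-exon fragments count by their length. The difference was then -4.13 for *Klhdc2*, -4.12 for *Nemf*, -1.01 for *Klhdc1* and -0.56 for *1110034A24Rik*, so the direction turned. It was 0.84 for *Pole2*. The zeros in RNPs there mean that no spliced transcript was assembled.

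**Figure D3:**
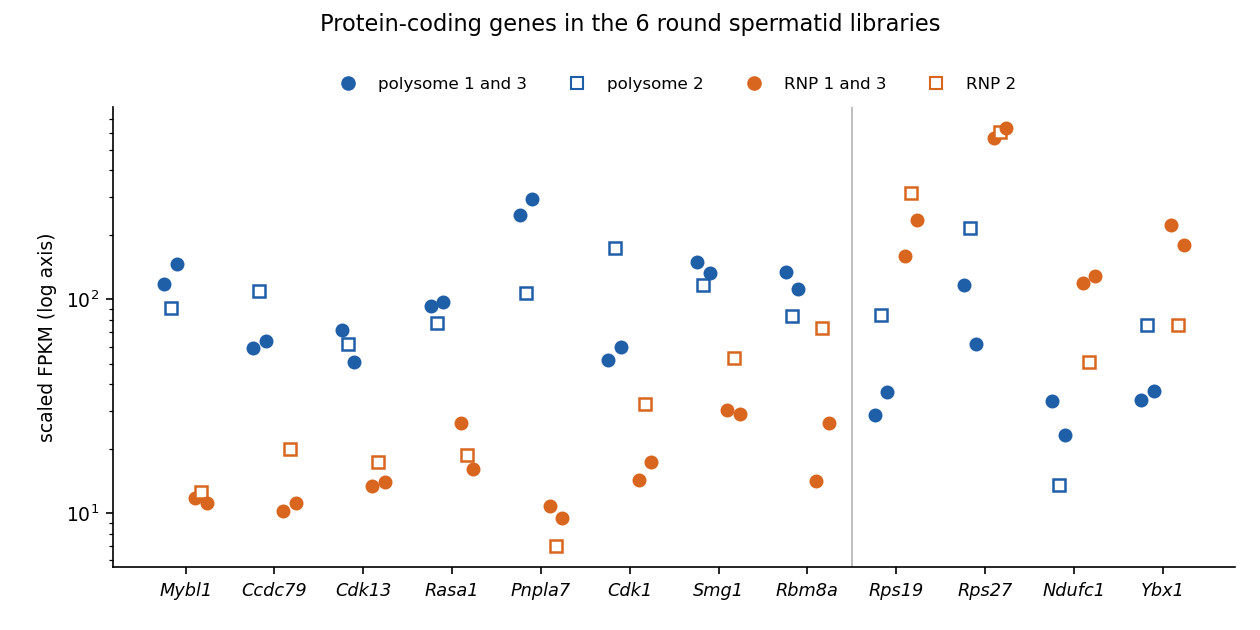
Scaled FPKM (log axis) of protein-coding genes in the round spermatid libraries, polysome libraries in blue left of RNP libraries in orange and the libraries numbered 2 as open squares. In the 8 genes left of the grey line every polysome point lies above every RNP point, and in the 4 genes right of it every polysome point lies below every RNP point, though by 75.4 against 76.0 for replicate 2 of *Ybx1*.

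The coding calls depended on the way fragments were added up. Of the 14 coding genes called, 0 were called with length-weighted values. The difference of *Mybl1* was then 0.99, that of *Ccdc79* 0.91, that of *Pnpla7* 1.28, that of *Rasa1* 0.88 and that of *Cdk13* 0.39. When only transcripts with a complete annotated intron chain were counted, 10410 genes were tested, and *Ccdc79*, *Pnpla7* and *Pole2* had no result. There 1 coding call remained, *1110034A24Rik*. The difference was -3.67 for *Mybl1*, -2.16 for *Cdk13* and -1.31 for *Rasa1*, the other direction. The calls for coding genes thus describe the summed spliced fragments of a gene. The calls for U6atac, Y RNA, Vault and 7SK were made under both settings. For such single-exon genes the intron chain setting sums the same fragments and length weighting only rescales them. These settings therefore could hardly change their calls and are no separate support for them.

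Without both libraries numbered 2, further genes passed. *Rps19*, a protein of the small ribosomal subunit, had 28.8, 84.2 and 36.9 in polysomes and 159, 314 and 235 in RNPs, with no overlap and a difference of -2.32 ± 0.46. Its adjusted p in limma was 0.062, against 0.0334 without both libraries numbered 2 and 0.041 with the block. *Ybx1*, a cold-shock protein that packages mRNA in RNPs, had 33.6, 75.4 and 37 in polysomes and 222, 76 and 178 in RNPs, and its adjusted p was 0.278 in limma with a difference of -1.65 and 0.00305 without both libraries numbered 2 with a difference of -2.46. *Rps19*, *Ybx1* and *Ppia* were too small in change for the rule and are named after their values were seen.

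Enzymes were in this group too. *Ppia*, the prolyl isomerase cyclophilin A, had 676, 982 and 669.6 in polysomes and 128, 564 and 152 in RNPs, and *Rtel1*, a helicase that protects telomeres, had 96.1, 20.2 and 79.4 in polysomes and 9.63, 7.33 and 10.02 in RNPs. With complete intron chains alone the difference of *Rtel1* was -1.96 and that of *Rps19* 2.29, the other direction in both. The adjusted p of *Ppia* and *Rtel1* in limma was 0.45 and 0.18 with all libraries and 0.045 and 0.0385 without both libraries numbered 2. *Gdi2*, which recycles Rab GTPases, had 0, 83.5 and 0 in polysomes and 61.2, 52.1 and 53.6 in RNPs. It was listed at 0 in polysome replicates 1 and 3 and was highest of the 6 libraries in polysome replicate 2 (adjusted p = 0.462 in limma, 2.08e-07 without both libraries numbered 2).

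Gene lists were described by their medians and by how many members did not overlap between the fractions, beside 4.12% of all genes higher and 4.35% lower. Of the 12 lists plotted, cytoplasmic ribosomal proteins lay furthest towards RNPs. Of its 86 genes 83 were tested, 65 had a negative difference, 32 (38.6%) were lower in polysomes without overlap and 1 (1.2%) was higher, and the median was -0.88 against 0.07 over all genes. Without both libraries numbered 2 the median was -0.82, with 53 lower and 3 higher where 20.1% and 22.1% of all genes did so. None of the 83 was called in the test across all genes, the median with FPKM as deposited was -0.12 where that of all genes was 0.65, and *Rps19* was the only one called without the libraries numbered 2 and with the block.

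Members of the small subunit showed the size of these differences. *Rps27* had 117, 216 and 62 in polysomes and 569, 604 and 632 in RNPs, a difference of -2.36 ± 0.80 (adjusted p = 0.564 in limma), and *Rps29* had 349, 228 and 245 in polysomes and 1241, 584 and 2529 in RNPs, a difference of -2.18 ± 0.74 (adjusted p = 0.564 in limma). *Rps12*, named after its values were seen, had 65.2, 104 and 76.9 in polysomes and 261, 284 and 304 in RNPs. Of the large subunit *Rpl37a*, also named after its values were seen, had 98.9, 88 and 112 in polysomes and 340.3, 223 and 554 in RNPs. A positive difference was found for 18 of the 83 genes, the highest 1.91, and *Rps9* was the 1 that was higher without overlap. *Rps9*, named after its values were seen, had 408, 566 and 468 in polysomes and 136, 207 and 153 in RNPs. Its difference was 1.55 ± 0.53 (adjusted p = 0.564 in limma).

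Ribosomal protein mRNAs begin with a run of pyrimidines, the TOP motif, through which their translation is known to be switched on and off together. The windows below, from 10 bases before to 20 bases from the RefSeq start on (GRCm38.p6), show *Rps27* and *Rps9*, which lay on opposite sides, and the proteasome gene *Psma2*, with the longest run of C and T in capitals.
Rps27, chromosome 3: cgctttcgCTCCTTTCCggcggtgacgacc
Rps9, chromosome 7: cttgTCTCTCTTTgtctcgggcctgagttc
Psma2, chromosome 13: tactgcgcatgtgcgtggctgtgTTCCgac

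A run of at least 7 letters that are each C or T, searched on the strand of the gene only, was present in the window of 34 of 60 ribosomal protein genes with a RefSeq entry (56.7%), of 4 of 34 proteasome genes (11.8%) and of 5551 of 27025 genes in all (20.5%). The median difference was -0.87 for the 34 ribosomal protein genes with the run and -1.04 for the 26 without it. *Rps9* and *Rps27* both had a run of 9.

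Nuclear genes of the respiratory chain lay on the same side as ribosomal proteins after scaling, with a smaller shift. Of 80 genes 20 (25%) were lower in polysomes without overlap and 1 (1.25%) was higher, and the median was -0.25, and -0.13 without both libraries numbered 2. *Ndufc1*, a subunit of complex I named after its values were seen, had 33.3, 13.5 and 23.1 in polysomes and 118, 50.9 and 128 in RNPs, a difference of -2.02 ± 0.51 (adjusted p = 0.272 in limma). *Atp5k*, a subunit of ATP synthase, had 67.8, 103 and 76.9 in polysomes and 645, 201 and 207 in RNPs, and with complete intron chains alone its difference was 1.37, the other direction. Members with a positive difference included *Cox4i1*, a subunit of cytochrome oxidase, with 387, 203 and 372 in polysomes and 212, 207 and 187 in RNPs. None of the 80 was called, and with FPKM as deposited the median was 0.50, above 0 but below the 0.65 of all genes.

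Proteasome subunits lay towards polysomes. Of 41 genes tested 33 had a positive difference, 9 (22%) were higher in polysomes without overlap and 0 were lower, with a median of 0.52, and 0.39 without both libraries numbered 2. *Psma2*, a subunit of the outer ring of the core particle, had 76.5, 241 and 94.1 in polysomes and 14.3, 56.9 and 25 in RNPs, a difference of 2.09 ± 0.61 (adjusted p = 0.434 in limma). With complete intron chains alone it was -4.83, the other direction. *Psmd13*, a subunit of the lid, had 46.9, 56.9 and 46.5 in polysomes and 29.2, 30.6 and 29.7 in RNPs. The median was 0.34 with length-weighted values and 0.24 without polysome replicate 2. *Psma2* and *Psmd13* are named after their values were seen, and in both the lowest polysome value exceeded the highest RNP value.

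Factors of nonsense-mediated decay, the pathway that removes mRNAs with early stop codons, lay towards polysomes too. Of 18 genes tested 6 (33.3%) were higher without overlap and 0 lower, with a median of 0.46, and 0.60 without both libraries numbered 2. *Smg1*, the kinase of UPF1, had 149, 117 and 132 in polysomes and 30.3, 53.3 and 29.2 in RNPs, a difference of 1.84 ± 0.60 (adjusted p = 0.543 in limma). *Rbm8a*, a core protein of the exon junction complex, had 134, 83.7 and 112 in polysomes and 14.1, 73.3 and 26.3 in RNPs, a difference of 1.80 ± 0.60 (adjusted p = 0.55 in limma). With complete intron chains alone the difference of *Rbm8a* was -2.10, the other direction. RNP replicate 2 was the RNP library nearest to the polysomes in both genes. The median was 0.20 with length-weighted values and 0.13 without polysome replicate 2. The endonuclease gene *Smg6*, named after its values were seen, had 60.6, 58 and 77.8 in polysomes and 37.6, 27.1 and 19.6 in RNPs.

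Genes of the meiotic divisions, which precede the round spermatid, had a median of 0.27 over 55 genes (0.39 without both libraries numbered 2), with 8 (14.5%) higher in polysomes without overlap and 2 (3.64%) lower. *Cdk1*, the kinase of entry into division, had 52.1, 174 and 59.9 in polysomes and 14.2, 32.2 and 17.3 in RNPs, a difference of 1.98 ± 0.45 (adjusted p = 0.156 in limma, 0.0625 without both libraries numbered 2). Polysome replicate 2 was the highest of the 6 libraries. *Prc1*, a protein of the spindle midzone, had 43.4, 62.1 and 42 in polysomes and 20.5, 29.3 and 17.9 in RNPs, and *Wee1*, an inhibitor of CDK1, had 26.4, 27.8 and 58.7 in polysomes and 16.3, 13.2 and 16.4 in RNPs. *Cdk1*, *Prc1* and *Wee1* are named after their values were seen, and none of the list was called. With complete intron chains alone the median of the list was 0.06 and the differences of *Cdk1*, *Prc1* and *Wee1* were -4.39, -2.79 and -1.94, the other direction.

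**Figure D4:**
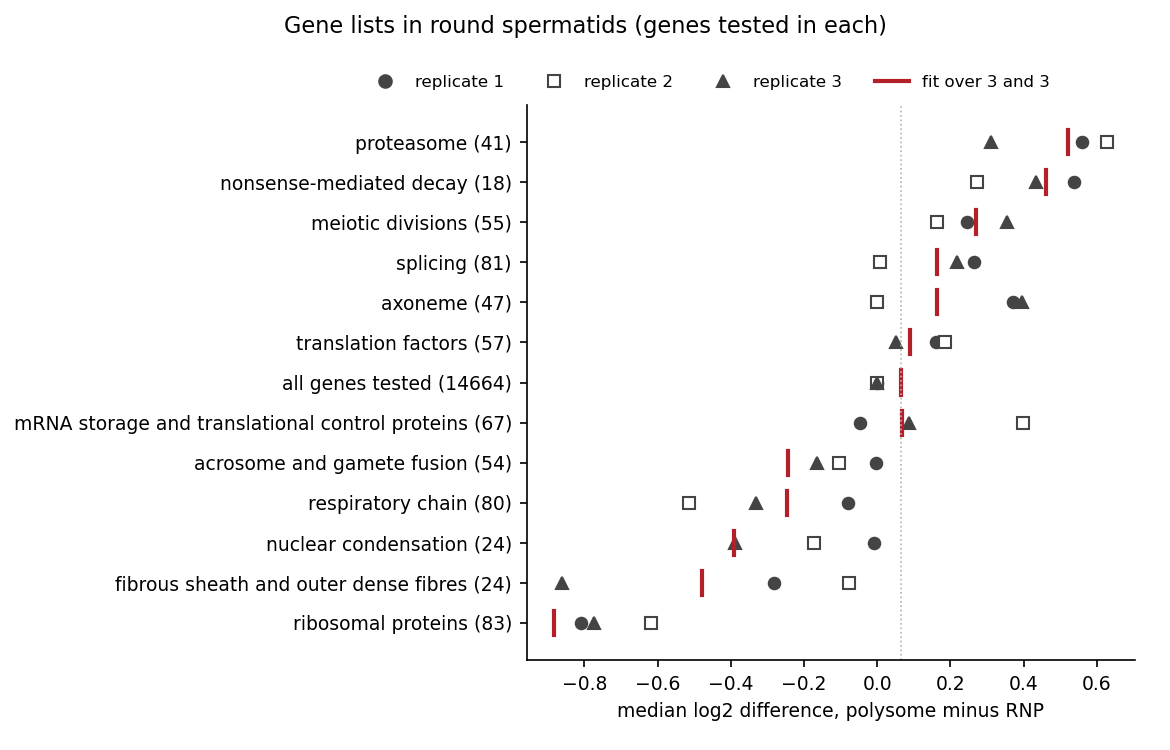
Median log2 difference, polysome minus RNP, of gene lists in round spermatids, with the number of genes tested in brackets, the red line for the fit and 1 point for the difference within each replicate number. The proteasome and nonsense-mediated decay lists lie at 0.52 and 0.46 and ribosomal proteins at -0.88, and the dotted line marks 0.07 for all genes.

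Lists of spermatid functions moved with the libraries numbered 2. The 24 genes of nuclear condensation had a median of -0.39, and -0.06 without both libraries numbered 2. For 54 genes of the acrosome and gamete fusion the medians were -0.24 with and -0.00 without them, and for 24 genes of the fibrous sheath and outer dense fibres of the tail -0.48 with and -0.61 without them. No member of the 3 lists was called in either fit, and leaving out single libraries moved the medians between -0.81 and 0.03, between -1.11 and 0.84 and between -1.63 and 0.54. The list of 67 proteins of mRNA storage and translational control had a median of 0.07, that of all genes, and 57 translation factors had a median of 0.09, which was 0.40 with complete intron chains alone and -0.02 without polysome replicate 2.

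The mRNAs of protamines and transition proteins, the classic stored mRNAs of spermatids, stood at other levels in the libraries numbered 2 than in the rest. *Prm1*, which encodes protamine 1, had 17 and 203 in polysome replicates 1 and 3 and 2009.8 and 1779.6 in RNP replicates 1 and 3, but 42.8 in polysome replicate 2 and 51.7 in RNP replicate 2. *Prm2*, named after its values were seen, had 0 and 55.1 in polysome replicates 1 and 3 and 521 and 233 in RNP replicates 1 and 3, and *Tnp1*, which encodes transition protein 1, had 321 and 156 in polysome replicates 1 and 3 and 828 and 1137 in RNP replicates 1 and 3. In replicates 1 and 3 these 3 genes were lower in every polysome library than in every RNP library, as were 20.1% of all genes tested. The difference of *Prm1* was -3.40 ± 2.31, and -4.97 without both libraries numbered 2, with an adjusted p of 0.9 and 0.605 in limma.

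*Tnp2*, which encodes transition protein 2, had 434, 12.5 and 513 in polysomes and 1126, 16.2 and 643 in RNPs, a difference of -0.68 ± 1.84 that was not called (adjusted p = 1 in limma). *Odf2*, an outer dense fibre protein, had 433, 57.5 and 168 in polysomes and 777, 184 and 531 in RNPs (adjusted p = 0.824 in limma). *Ddx25*, an RNA helicase of the chromatoid body that is needed for spermatid development, had 379, 53.9 and 340.2 in polysomes and 224, 41.1 and 206 in RNPs (adjusted p = 0.963 in limma). In all 3 genes replicate 2 was the lowest library of each fraction, and the range within each fraction exceeded the difference between the fractions. In *Odf2* polysome replicates 1 and 3 also lay apart.

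None of the 13 genes that the study followed by name was called as a whole gene between the fractions. The study followed *Clu* and *Tnp2* over gradient fractions. It followed the others as isoforms with longer or shorter 3′ UTRs, most of them between cell types, so the measures differ. *Clu*, a Sertoli cell gene, had 18.7, 963 and 32.6 in polysomes and 22, 842 and 49.1 in RNPs, so that replicate 2 exceeded the others by far in both fractions. *Eif4h*, an activator of the initiation helicase, had 38.4, 54.5 and 29.97 in polysomes and 29.2, 53.2 and 22 in RNPs, and *Apc*, the adenomatous polyposis gene, had 1.7, 13.4 and 4.36 in polysomes and 8.6, 28.2 and 6.59 in RNPs. *Akap1*, an anchor of protein kinase A at mitochondria, had 64.6, 8.64 and 14.3 in polysomes and 99.1, 6.67 and 42.7 in RNPs.

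Short mRNAs lay towards RNPs. Of 859 spliced coding genes whose longest annotated transcript is at most 1000 nucleotides, 95 (11.1%) were lower in polysomes without overlap and 12 (1.40%) higher, with a median difference of -0.36. The median was 0.07 for 2652 genes of over 1000 to 2000 nucleotides, 0.13 for 5439 genes up to 4000, 0.13 for 3729 genes up to 8000 and 0.16 for 619 longer genes. Without ribosomal protein and respiratory chain genes the 769 short genes had a median of -0.30, with 7.41% lower without overlap. Without both libraries numbered 2 the medians of these 5 length classes were -0.26, 0.04, 0.10, 0.13 and 0.32.

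The lists differed within this frame. The 47 ribosomal protein genes of at most 1000 nucleotides had a median of -1.07, with 25 lower without overlap, and the 36 longer ones had -0.49, with 7 lower. The 43 short respiratory chain genes had a median of -0.61 and the 37 longer ones 0.10. FPKM divides by the length of the transcript, and the part that the length correction plays in these medians was not tested.

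**Figure D5:**
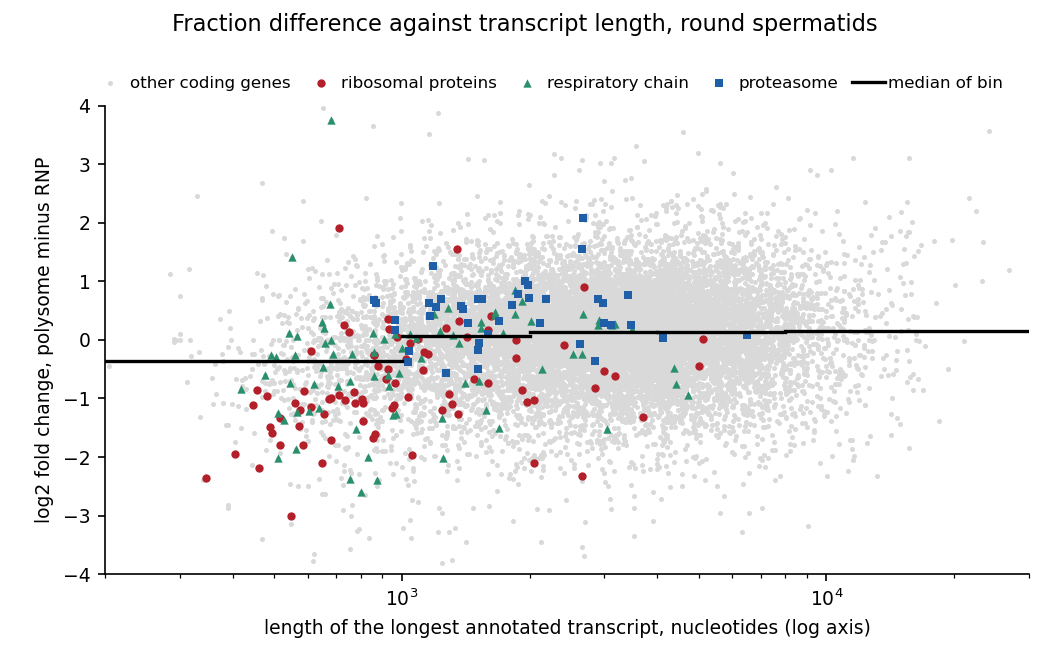
Log2 difference, polysome minus RNP, of coding genes (grey points) against the length of their longest annotated transcript in nucleotides (log axis), with ribosomal protein, respiratory chain and proteasome genes in colour and black lines at the median of each length class. The median is -0.36 up to 1000 nucleotides and 0.07 to 0.16 above, and 16 coding genes lie beyond the axis.

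Lengths per library were taken over coding transcripts with a complete annotated intron chain and an FPKM of at least 1, 4900 to 7273 per library. Such a chain was found for 23.3%, 34.1% and 24.5% of spliced transcripts in polysome replicates 1, 2 and 3. In the RNP replicates it was found for 24.3%, 33.3% and 27.2%, so the share was highest in the libraries numbered 2. The FPKM-weighted geometric mean of the annotated 3′ UTR length was 326, 499.6 and 356 nucleotides in polysome replicates 1, 2 and 3. It was 302, 429 and 305 nucleotides in the RNP replicates. Within each replicate number the polysome library had the longer 3′ UTR, and the libraries numbered 2 had the longest in both fractions. On the log2 scale the means were 8.60 ± 0.32 in polysomes and 8.41 ± 0.29 in RNPs (SD, n = 3 each), 0.18 apart (exact permutation test, two-sided, p = 0.5), and 0.17 apart without both libraries numbered 2 (p = 0.333, exact, the smallest that 2 against 2 libraries allow). Without polysome replicate 2 alone the difference was 0.00028. The smallest p that 3 against 3 libraries allow is 0.1.

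The spliced length of the same mRNAs was 1644, 1945 and 1675 nucleotides in polysomes and 1462, 1739 and 1439.9 nucleotides in RNPs. On the log2 scale the means were 10.77 ± 0.13 in polysomes and 10.59 ± 0.15 in RNPs (SD, n = 3 each), 0.18 apart (exact permutation test, two-sided, p = 0.3), and 0.19 apart without both libraries numbered 2. Polysome libraries were longer in 3 of 3 replicate numbers for both measures, and a sign-flip test over 3 pairs cannot go below the 0.25 (exact) that both gave.

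Single annotated transcripts could differ where the gene did not. Of 11454 transcripts with an annotated intron chain, 6 (0.0524%) were called, 3 higher (0.0262%) and 3 lower (0.0262%) in polysomes. Without both libraries numbered 2, 22 (0.192%) were called, 10 higher (0.0873%) and 12 lower (0.105%), and 1 lower (0.00873%) with the replicate block, while 759 (6.63%) had an unadjusted p under 0.05. *Ldhc-001*, the annotated mRNA of the lactate dehydrogenase of germ cells, was listed at 0 in polysomes and had 515, 227 and 1389 in RNPs (adjusted p = 1.93e-06 in limma, 9.35e-06 without both libraries numbered 2 and 0.000744 with the block). The gene *Ldhc* as a whole had 2265, 362 and 1947 in polysomes and 1485, 253 and 1389 in RNPs. Other assembled forms of the gene thus carried all of its polysome value. Each of the 6 called transcripts was listed at 0 in every library of the lower fraction. Such a 0 means that no assembled transcript had the complete intron chain, which does not show that the mRNA was absent.

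*Gdpd1-001* (3′ UTR of 1306 nucleotides) was at 0 in polysomes and had 34, 10.2 and 20.8 in RNPs, where the gene had 21.4, 28.4 and 20.4 in polysomes and 34, 10.2 and 20.8 in RNPs. *Klhl7-201* was at 0 in polysomes and had 12.2, 17.9 and 14.4 in RNPs, where the gene had 18.9, 26.4 and 41.5 in polysomes and 12.2, 17.9 and 14.4 in RNPs. *Dhx40-001*, of a gene for a helicase, had 78.6, 59.1 and 71.9 in polysomes and was at 0 in RNPs, where the gene had 78.6, 59.1 and 84.6 in polysomes and 149, 50.7 and 162 in RNPs. The genes *Gdpd1*, *Klhl7* and *Dhx40* were not called as a whole.

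*Brwd3-001* had 3.71, 5.25 and 3.46 in polysomes and was at 0 in RNPs, where the gene had 3.71, 5.25 and 3.46 in polysomes and 12.5, 18.4 and 30.5 in RNPs. *1110034A24Rik-001* had the same values as its gene, which was itself called. *Dhx40-001* (adjusted p = 0.107 in limma) and *Brwd3-001* (0.0543) were no longer called without both libraries numbered 2.

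The difference between the fractions was then set against the mean difference in pachytene spermatocytes and elongating spermatids in the same fit. Of 14664 genes 0 passed at an adjusted p under 0.05 in limma, while 325 (2.22%) had an unadjusted p under 0.05. The 2 small RNAs with the smallest p in round spermatids stood the same way in the other cells. U6atac on chromosome 7 was at 0 in the polysome libraries of both and had 55939, 59295 and 89182 in pachytene RNPs and 16979, 13218 and 17169 in elongating RNPs. 7SK on chromosome 9 had 2472, 3469 and 3054 in pachytene polysomes and 2091, 2906 and 4028 in elongating polysomes and was at 0 in the RNP libraries of both. AL645971.1 was listed at 0 in the 6 elongating libraries and had 24.2, 139.9 and 126 in pachytene RNPs.

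*Mybl1* had the larger difference in round spermatids. It had 27.8, 23.8 and 48.5 in pachytene polysomes and 22.7, 19.3 and 17.9 in pachytene RNPs, and 14.9, 43.3 and 92.3 in elongating polysomes and 9.86, 9.35 and 9.88 in elongating RNPs, and the round difference exceeded the mean of the others by 1.91 ± 0.60 (limma, unadjusted p = 0.00617, not called after adjustment). *Cdk1* had 30.3, 35.8 and 35.7 in pachytene polysomes and 24.9, 33.6 and 16.3 in pachytene RNPs, and the round difference exceeded the mean of the others by 1.59 ± 0.55 (unadjusted p = 0.0102 in limma). Without both libraries numbered 2, 4 genes (0.0273%) passed, all with a lower difference, polysome minus RNP, in round spermatids than in the other cells. They were *Gdi2* (-6.00), *2810002N01Rik* (-4.17), *Mcts2* (-4.19) and *Spata2L* (-2.68), of which *Gdi2* alone was named by the rule, and each was listed at 0 in round polysome replicates 1 and 3. *Spata2L* was listed at 0 in all pachytene and elongating libraries.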

How the data were processed

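Large RNA of the polysome and RNP fractions of purified spermatogenic cells was sequenced on an Illumina HiSeq 2000 after a stranded total RNA library preparation. Per the methods and the labels, the authors cleaned reads in the FASTX-Toolkit, mapped them by TopHat2 (mm9) and built transcripts for every library separately in Cufflinks, whose versions were not given in the sources used here. The deposited files list the assembled transcripts of 18 libraries with their FPKM, with no scaling between libraries, and a transcript that was not assembled has no entry.

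Groups were taken from the labels. Transcripts were assigned to GENCODE vM1 genes by strand and a shared splice junction (single-exon transcripts only for genes with 1 exon), FPKM were summed per gene, and libraries were divided by median-ratio factors over 7038 genes. Genes that reached an FPKM of 1 in 3 or more libraries entered limma 3.58.1 (R 4.3.3) with its trend option on log2(scaled FPKM + 1), with 6 groups over 18 libraries and Benjamini-Hochberg adjustment, called at an adjusted p under 0.05. Lengths per library were compared by exact permutation tests in Python 3.11.15 with scipy 1.17.1. The deviations of same-numbered polysome and RNP libraries gave r = 0.525, 0.657 and 0.197 across genes for replicates 1, 2 and 3. Polysome replicate 3 with RNP replicate 1 gave 0.215 and polysome replicate 1 with RNP replicate 3 gave 0.325, both above the 0.197. The other unlike-numbered pairs were negative (-0.285 to -0.599). Replicate 3 was thus not set apart as a pair. Fits with the replicate number as a block are given where they changed a call.

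Length-weighted gene values add FPKM times length over spliced and single-exon transcripts on annotated exons and divide by the longest annotated spliced length. Genes were named by a rule: the 12 called genes with the largest change in each direction that did not overlap and reached a mean of 10 in the higher fraction, the same for the 10 largest without both round libraries numbered 2, up to 6 members of each list with the highest mean, 13 genes the study followed and the called transcripts, and not every gene that met it is named. The members and lists were chosen with earlier results of these data known. Start windows came from RefSeq (GRCm38.p6), small RNA sequences from mm9. Cufflinks divides a read among transcripts and splits reads shared by near-identical copies, so values of multicopy RNAs are uncertain. In a test on data simulated for the gene comparison over 14664 genes, 43 of 50 genes changed by -4 on the log2 scale were called. So were 44 of 50 changed by 4, 25 of 50 changed by -2, 21 of 50 changed by 2 and 8 of 14464 unchanged genes. The residuals of each gene were shuffled over all 18 libraries, which removes the shift shared by the libraries numbered 2. Changes were set only in genes above a minimum mean level. These rates therefore need not hold for the real libraries.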

Additional observations from a re-analysis of the deposited data

How the results depend on the processing

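The 26 genes called between the fractions became 48 (37 higher, 11 lower) with FPKM as deposited, 99 (81 higher, 18 lower) with FPKM as deposited and without both round libraries numbered 2 (an alternative chosen after seeing the data), and 9 (3 higher, 6 lower) in a fit of the 6 round libraries alone. They numbered 21 to 28 with quantile normalization, a pseudocount of 0.1, no filter, an FPKM minimum of 5, or factors from the round libraries. With complete intron chains, where 10410 genes were tested, 22 were called (5 higher, 17 lower, and 12 of them among the 26). With length-weighted values 24 were called (5 higher, 19 lower, and 11 among the 26). In both settings the split turned from mostly higher to mostly lower. Leaving out single round libraries gave 12 to 42 genes and 2 to 13 transcripts, against 6 transcripts in all libraries. Without both round libraries numbered 2 there were 22 transcripts. The difference between cell types, 0 genes in limma (325 at an unadjusted p under 0.05), became 1 gene with no filter, 4 without both libraries numbered 2, and 0 to 2 without single libraries. The 3′ UTR length difference was 0.00028 to 0.35 and the spliced length difference 0.11 to 0.27 without single libraries. Where that left 2 libraries in a group, the spread was pooled over all groups.

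The replicate block, or pairing by number, gave 14 genes (4 higher, 10 lower) and 1 transcript, and for both lengths p = 0.25 in an exact sign-flip test over pairs. Of the 59 genes named with values, 13 lost their call with the block and 1 gained it.

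With complete intron chains the direction reversed for *Atp5k* (1.37), *Cdk1* (-4.39), *Cdk13* (-2.16), *Mybl1* (-3.67), *Prc1* (-2.79), *Psma2* (-4.83), *Rasa1* (-1.31), *Rbm8a* (-2.10), *Rps19* (2.29), *Rtel1* (-1.96) and *Wee1* (-1.94), and with length-weighted values for *1110034A24Rik* (-0.56), *Klhdc1* (-1.01), *Klhdc2* (-4.13) and *Nemf* (-4.12), and the cause was not tested. The list medians with complete intron chains and with length-weighted values were -0.57 and -0.83 for ribosomal proteins, -0.12 and -0.30 for the respiratory chain, 0.06 and 0.13 for the meiotic divisions, 0.33 and -0.10 for the acrosome and -0.04 and -0.44 for the fibrous sheath. Depth in reads was not used here, so no interval for counting error is given, and a gene listed at 0 may lie under the limit of assembly.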
